A study of Homo sapiens with 12 samples.

Results

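Homeobox genes outside the HOX clusters were examined in G401, a cell line from a human malignant rhabdoid tumour, a childhood cancer that has lost SMARCB1. The set was a list of 41 genes, found in the gene count tables through their Ensembl identifiers, and all 41 were matched among 57820 gene identifiers. Each cell carried the SMARCB1-/- genotype. Doxycycline induced either GFP, a control protein, or SMARCB1 itself, which belongs to the core of the SWI/SNF chromatin remodelling complexes. Each of these cell states received dBRD9-A, which degrades BRD9 protein of the non-canonical SWI/SNF complex, or its solvent DMSO for 24 h. The 4 groups were GFP with DMSO, GFP with dBRD9-A, SMARCB1 with DMSO and SMARCB1 with dBRD9-A, with 3 libraries in each. All cells come from a single tumour line, whether the lines carrying GFP and SMARCB1 were clones is not given in the sources used here, and SMARCB1 came from an induced construct. The labels do not say whether the 3 libraries of a group were separate cultures, so p values measure the spread between these libraries, which may be technical.

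Homeobox genes encode transcription factors that bind DNA through the homeodomain and give cells their position and identity in the embryo. The list holds genes of the midbrain and hindbrain (GBX, EN and OTX), of neural crest and limb mesenchyme (MSX, DLX, ALX, PRRX, SHOX2 and PITX1), the Iroquois family (IRX), LIM and NK homeobox genes, SIX4 and SIX5, and the TALE class (MEIS, PBX and TGIF). Of the TALE proteins, MEIS and PBX bind DNA together with other homeodomain factors as partners, and TGIF proteins act as repressors. In the embryo many such genes are kept off by Polycomb, which SWI/SNF complexes oppose.

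Libraries held 34.97 to 58.54 megacounts (1e6 counts) assigned to genes. As a check of the labels, SMARCB1 had 0 to 2 counts in the 6 GFP libraries and at least 53033 counts in each SMARCB1 library. Between the SMARCB1 groups it fell from 1875 ± 59.4 CPM in DMSO to 1307 ± 27.0 CPM with dBRD9-A (SD, n = 3; log2 fold change -0.52, adjusted p 4.95e-08), so these groups also differ in their level of SMARCB1 mRNA. BRD9 mRNA had 1483 to 2635 counts in every library, and its protein, on which the degrader acts, was not measured. VIM, KRT8 and KRT18, the intermediate filament genes that mark rhabdoid cells, had at least 45667 counts in each library, CD99 had 868 to 2439, and MUC1 had 2 to 17. Of 12 markers of other cell types, 11 were matched, and PTPRC, CD3E, MYOD1 and MYOG were at 0 in all libraries. Others were present and differed with SMARCB1 in DMSO by edgeR's test. The muscle gene DES, at 8 to 104 counts, rose (log2 fold change 2.753, adjusted p 4.54e-08). Of the epithelial genes, CDH1, at 0 to 37 counts, rose (3.545, adjusted p 1.33e-06), and EPCAM, at 0 to 44, fell (-4.788, adjusted p 1.87e-07). The endothelial gene CDH5 reached 10 counts, with counts in SMARCB1 libraries only. The summed level of the 11 was 0.748 to 1.08 counts per megacount (CPM) in GFP libraries and 1.98 to 8.93 CPM in SMARCB1 libraries. Replicate 1 of SMARCB1 with DMSO stood apart: GFAP, an astrocyte gene, had 234 counts there and at most 1 elsewhere, and 12 genes had at least 10 counts there and none in any other library. Without GFAP the summed level in the SMARCB1 libraries was 1.98 to 2.8 CPM. The part of these genes in the results below was not tested, and the counts of changed genes in comparisons that use replicate 1 are also given without it.

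The promoters of the genes on which the results turn are shown here from RefSeq, build GRCh38.p14, as the 250 bases before the annotated start, 5′ to 3′ on the gene's strand. GBX2, DLX1, DLX2 and MSX1 are shown because they rose with dBRD9-A in GFP cells, and IRX2 because it was silent in all libraries. They were chosen with these results known. Capitals mark CCAAT on either strand and, in DLX1, TGANTCA, the AP-1 motif. No marked bases of these 2 motifs overlap.
GBX2, chr2:236168387-236168636, minus strand: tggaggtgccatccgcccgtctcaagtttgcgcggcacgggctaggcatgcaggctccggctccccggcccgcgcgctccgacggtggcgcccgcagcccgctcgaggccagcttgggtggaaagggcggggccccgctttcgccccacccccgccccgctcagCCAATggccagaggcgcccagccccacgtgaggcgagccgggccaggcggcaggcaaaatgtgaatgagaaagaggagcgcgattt
DLX1, chr2:172085257-172085506, plus strand: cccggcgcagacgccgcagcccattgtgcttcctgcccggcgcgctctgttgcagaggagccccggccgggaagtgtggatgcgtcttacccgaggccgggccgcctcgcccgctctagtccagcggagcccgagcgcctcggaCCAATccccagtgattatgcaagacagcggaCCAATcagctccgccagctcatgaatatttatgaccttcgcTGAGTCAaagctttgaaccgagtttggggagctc
DLX2, chr2:172102901-172103150, minus strand: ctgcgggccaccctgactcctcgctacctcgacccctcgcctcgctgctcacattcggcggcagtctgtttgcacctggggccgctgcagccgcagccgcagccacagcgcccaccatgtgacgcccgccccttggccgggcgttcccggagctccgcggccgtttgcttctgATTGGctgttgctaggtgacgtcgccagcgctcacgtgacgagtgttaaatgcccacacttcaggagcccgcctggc
MSX1, chr4:4859415-4859664, plus strand: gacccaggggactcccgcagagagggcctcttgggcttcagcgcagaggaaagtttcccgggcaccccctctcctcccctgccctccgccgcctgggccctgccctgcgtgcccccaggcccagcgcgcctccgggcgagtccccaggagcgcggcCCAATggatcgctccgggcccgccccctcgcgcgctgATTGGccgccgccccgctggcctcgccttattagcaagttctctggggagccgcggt
IRX2, chr5:2751678-2751927, minus strand: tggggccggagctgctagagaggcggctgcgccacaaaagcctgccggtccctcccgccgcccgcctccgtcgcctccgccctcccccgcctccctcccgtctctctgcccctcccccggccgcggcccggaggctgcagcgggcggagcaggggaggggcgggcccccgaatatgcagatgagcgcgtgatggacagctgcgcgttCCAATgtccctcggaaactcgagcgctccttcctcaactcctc

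These 5 windows are rich in G and C, 63.6% in DLX1 to 74.0% in MSX1, and hold 23 to 28 CpG. The table had a window for 30 of the 41 genes. Of these 30, 24 had at least 12 CpG, the median of all 27305 genes with a window, a count that 51.5% of all genes reached. The 7 silent members with a window had a median of 25 CpG (6 to 40) and the 22 tested members a median of 25 (6 to 45), so the CpG counts did not set silent and expressed members apart. A CCAAT motif lay in a window of 19 of the 30 members, against 37% of all genes, and it lay in 5 of the 7 silent and 14 of the 22 tested members. Of the other motifs searched on both strands, TAATTA was in 1 member (5.37% of all genes), TGANTCA in 2 (8.06%), TGACAG in 3 (15.6%), TATAAA in 2 (13%), TAATCC in 2 (6.9%) and CAATTA in 1 (8.16%). TAATTA and CAATTA can share bases. Such matches describe letters and are not shown to be bound.

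Of the 41 genes, 11 were silent, meaning that each of the 12 libraries held at most 3 counts, the floor used here. A count of 3 was 0.0516 to 0.0847 CPM, depending on the library, and floors cover counting error only. EN1, a midbrain and hindbrain gene, the Iroquois genes IRX2 and IRX4, and the gonad and limb gene LHX9 had 0 counts in all 12 libraries. DLX5, IRX6, NKX6-1 (ventral neural tube and pancreatic beta cells) and PRRX1 (limb mesenchyme) reached 1 count at most, IRX1 and the cardiac gene NKX2-5 reached 2, and DLX6 reached 3. DLX6 held counts in every library but 1, 25 in all, more than any of the low genes below. It is thus silent by the floor per library only, and it overlaps DLX6-AS1 on the opposite strand in GENCODE 29. The only counts of IRX1, 2 of them, and of NKX6-1, 1, came from replicate 1 of SMARCB1 with DMSO. By this floor, IRX1, IRX2 and IRX4 on chromosome 5 were all silent, as were the adjacent DLX5 and DLX6 on chromosome 7. The neighbouring pairs DLX1 and DLX2 on chromosome 2 and DLX3 and DLX4 on chromosome 17 were expressed.

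A further 4 genes were low: over 3 counts in at least 1 library, but too few for the test. IRX3, which patterns the neural tube and limb, had 0 counts in all 6 GFP libraries, 2, 1 and 7 counts in SMARCB1 cells with DMSO, and 2, 3 and 2 counts in SMARCB1 cells with dBRD9-A. Every SMARCB1 library thus held a read of IRX3 and no GFP library did, with 1 library above the floor. IRX3 overlaps AC018553.2 on the opposite strand in GENCODE 29, and whether the counting used strand is not given in the sources used here. ALX1, a craniofacial mesenchyme gene, had 3, 3 and 5 counts in GFP cells with dBRD9-A, 1, 0 and 0 in GFP cells with DMSO, and at most 1 in any SMARCB1 library. GBX1, a relative of GBX2, had 3, 4 and 3 counts in SMARCB1 cells with DMSO and at most 1 elsewhere. IRX5 reached 4 counts with no order between groups, so no Iroquois gene of the 6 could be tested.

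**Figure D1:**
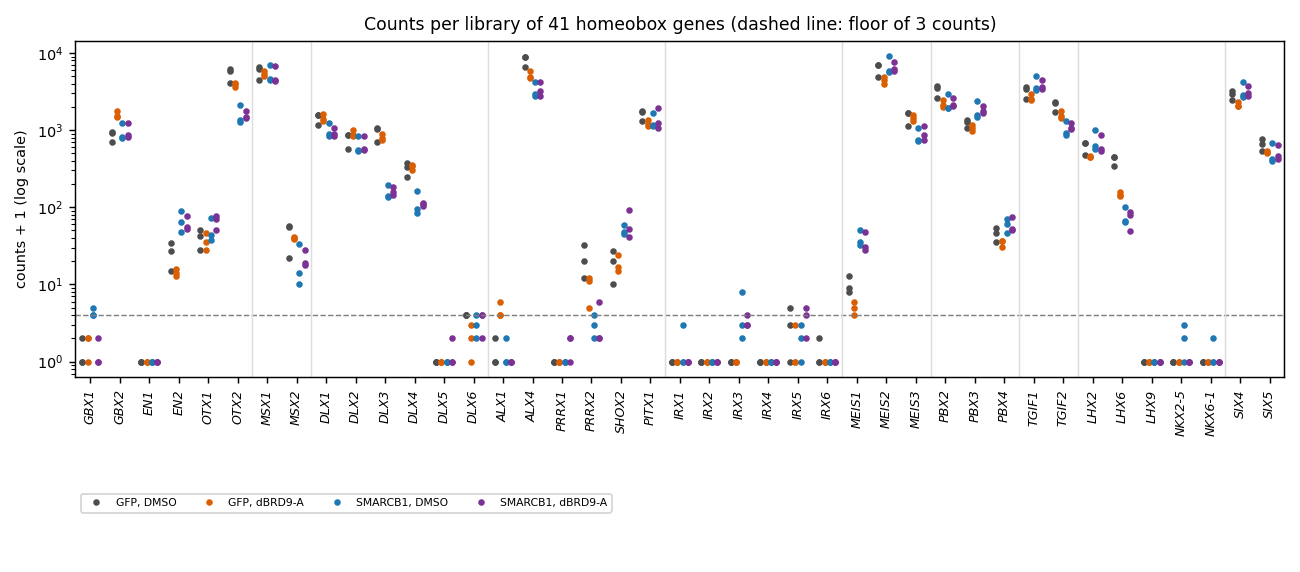
Counts of each of the 41 homeobox genes in the 12 libraries, as counts + 1 on a log axis, coloured by group, with family members side by side. The silent genes lie at or below the dashed floor of 3 counts in every library, and the 26 tested genes lie above it in most libraries.

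The other 26 genes (63.4%) passed the filter on low counts and were tested with edgeR's quasi-likelihood test, fitted to 15750 genes in all 12 libraries. Adjusted p values below are Benjamini-Hochberg values over all 15750 genes, and a gene counts as changed at an adjusted p under 0.05. Fold changes are relative to the bulk of genes, since edgeR's TMM factors, which scaled the libraries, take most genes as unchanged. The 26 spanned a wide range of levels per length, in CPM per kilobase (kb) of GENCODE 29 exons. In GFP cells with DMSO, MSX1, a transcriptional repressor needed for tooth and neural crest development, was the highest at 52.0 ± 1.14, followed by OTX2, a forebrain and midbrain gene, at 31.7 ± 0.913 and ALX4, a skull and limb gene, at 27.1 ± 0.516 (SD, n = 3). MEIS1 was the lowest at 0.016 ± 0.00408, and 17 of the 25 neighbouring pairs in this order did not overlap between libraries. Pairs that did overlap include MEIS2 with TGIF2, PITX1 with SIX4, and DLX1 with TGIF1. MSX1 had rank 1 in all 4 groups. OTX2 had rank 2 in both GFP groups, rank 7 in SMARCB1 cells with DMSO at 10.6 ± 0.555 and rank 5 in SMARCB1 cells with dBRD9-A at 10.4 ± 0.624 CPM per kb (SD, n = 3). In both SMARCB1 groups its libraries overlapped those of at least 1 neighbour in the order, so these ranks are not exact.

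Re-expression of SMARCB1 was compared with GFP in DMSO, which asks what the missing subunit does to these genes. OTX2, DLX3, DLX4, LHX6, ALX4, MSX2 and PRRX2 fell at least 2-fold, and MEIS1, SHOX2 and EN2 rose at least 2-fold. In all, 23 of the 26 tested genes changed (88.5%), where 65.0% of all genes tested did. Of these, 11 rose, where 33.5% of all genes rose, and 12 fell, where 31.6% of all genes fell. A change of at least 2-fold was reached by 10 members, where 14.6% of all genes reached it. The median absolute log2 fold change was 0.605 over the members and 0.284 over all genes. The filter keeps genes that are high in 1 group, so these shares describe the 26 genes and not the 41. The list was also chosen with earlier results of these data known. Shares of members beside shares of all genes, here and below, are therefore descriptions and not tests of the list. Without replicate 1 of SMARCB1 with DMSO, 22 members changed, 10 higher and 12 lower, and the rise of PBX4 missed the threshold. Without it 9 members changed at least 2-fold, since MSX2 was then at -0.89 on the log2 scale. Spike-in scaling, which moved the median of all genes by 0.17, gave 22 members, 12 higher and 10 lower.

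Among the midbrain and hindbrain genes, OTX2 was at 104.9, 100.3 and 105.9 CPM in GFP cells with DMSO and at 32.9, 34.4 and 36.5 CPM in SMARCB1 cells with DMSO. It fell by 1.58 on the log2 scale (SE 0.04, adjusted p 2.41e-15), with no overlap between the groups. EN2, which patterns the midbrain and cerebellum, moved the other way, from 0.462, 0.339 and 0.57 CPM to 1.23, 1.59 and 1.53 CPM, a log2 change of 1.64 (SE 0.20, adjusted p 1.35e-06). All 3 SMARCB1 libraries were above all 3 GFP libraries. GBX2, which opposes OTX2 at the boundary of midbrain and hindbrain, rose less, by a log2 change of 0.34 (SE 0.05, adjusted p 1.39e-05). OTX1, a relative of OTX2, rose from 0.755 ± 0.105 to 1.09 ± 0.127 CPM (SD, n = 3), for a log2 change of 0.53 (adjusted p 0.0217). That call was lost without GFP DMSO replicate 1 or 2 or SMARCB1 DMSO replicate 3, with an adjusted p of up to 0.111, and DESeq2 did not make it.

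The expressed DLX genes, which pattern the jaw, the placenta and forebrain interneurons, fell in 3 of 4 cases. DLX3, a gene of placenta, skin and teeth, was at 18.6, 17.0 and 18.2 CPM with GFP and at 3.61, 3.43 and 3.35 CPM with SMARCB1, both in DMSO. Its log2 change of -2.38 (SE 0.06, adjusted p 7.86e-16) had the lowest adjusted p of the 26 genes in this comparison. DLX4, its neighbour on chromosome 17, was at 6.66, 6.01 and 5.81 CPM with GFP and at 2.44, 2.09 and 2.75 CPM with SMARCB1, a log2 change of -1.33 (SE 0.11, adjusted p 9.13e-09). Both groups of libraries were apart in these genes. The pair on chromosome 2 moved less, with a log2 fold change of -0.35 in DLX1 (SE 0.04, adjusted p 1.59e-06) and of -0.06 in DLX2 (SE 0.06, adjusted p 0.399).

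The MSX genes differed from each other. MSX2, which acts in skull and limb, was at 0.977, 0.509 and 0.985 CPM with GFP and at 0.236, 0.328 and 0.55 CPM with SMARCB1 in DMSO, and it fell by 1.11 on the log2 scale (SE 0.30, adjusted p 0.00337). The lowest GFP library was under the highest SMARCB1 library, so the groups overlapped. The fall of MSX2 was under 2-fold, at -0.98, -0.97 and -0.89, without GFP DMSO replicate 1, GFP DMSO replicate 3 and SMARCB1 DMSO replicate 1. MSX1 had a log2 change of 0.10 (SE 0.06, adjusted p 0.151) that did not pass the test.

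Among the genes of limb and skull mesenchyme, ALX4 was at 156.7, 158.5 and 152.7 CPM with GFP and at 73.0, 74.2 and 71.6 CPM with SMARCB1, a log2 change of -1.10 (SE 0.04, adjusted p 1.13e-14). PRRX2, a gene of limb and facial mesenchyme, had 19, 11 and 31 counts with GFP and 2, 1 and 3 counts with SMARCB1. The summed counts, 61 against 6, gave a depth-scaled ratio of 8.9 with a 95% counting interval of 3.86 to 25.2, and the test gave an adjusted p of 8.19e-05. SHOX2, a limb and sinoatrial node gene, had 26, 9 and 19 counts with GFP and 44, 47 and 58 with SMARCB1, a log2 change of 1.67 (SE 0.28, adjusted p 4.31e-05). PITX1, a hindlimb gene, was at 31.1 ± 0.99 and 29.2 ± 1.33 CPM (SD, n = 3) and did not pass the test (log2 fold change -0.09, adjusted p 0.359). SHOX2, PRRX2 and PITX1 overlap genes on the opposite strand in GENCODE 29. Whether the counting used strand is not given in the sources used here, so the counts of these genes are uncertain to that extent. The same limit holds for MEIS2, PBX4, LHX2 and SIX5, and for GBX2 and MEIS1, as given below.

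The TALE genes also split. MEIS1, a partner of HOX and PBX proteins, had 7, 8 and 12 counts with GFP and 34, 31 and 50 with SMARCB1, a log2 change of 2.26 (SE 0.27, adjusted p 8.04e-07). It overlaps antisense genes, so the strand limit applies to it as well. MEIS2 rose from 122 ± 1.73 to 151 ± 5.31 CPM (SD, n = 3), for a log2 change of 0.32 (adjusted p 8.44e-08). MEIS3 fell from 29.8, 27.1 and 29.1 CPM to 18.7, 19.0 and 18.5 CPM, by 0.62 on the log2 scale (SE 0.05, adjusted p 3.41e-09). PBX3 rose from 24.2, 25.8 and 22.2 CPM to 38.4, 39.5 and 41.5 CPM, a log2 change of 0.73 (SE 0.05, adjusted p 7.95e-10). PBX4 rose from 0.855 ± 0.0588 to 1.297 ± 0.215 CPM (SD, n = 3), for a log2 change of 0.59 (adjusted p 0.00844). PBX2 fell from 61.6, 62.8 and 63.7 CPM to 51.4, 48.4 and 50.4 CPM, by 0.32 on the log2 scale (SE 0.04, adjusted p 3.07e-07), a call that was lost under spike-in scaling (-0.15, adjusted p 0.0647). The 2 TGIF repressors moved in opposite directions. TGIF1 rose from 60.1, 61.5 and 63.2 CPM to 88.0, 87.4 and 86.4 CPM, a log2 change of 0.50 (SE 0.03, adjusted p 4.95e-11), and TGIF2 fell from 40.95 ± 1.41 to 22.8 ± 0.205 CPM (SD, n = 3), by 0.84 on the log2 scale (adjusted p 1.04e-11). TGIF2 overlaps a read-through gene on its own strand, TGIF2-RAB5IF, so reads may be divided between them.

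Of the LIM genes, LHX6, a gene of cortical interneurons and teeth, was at 7.99, 8.24 and 7.76 CPM with GFP and at 1.73, 1.61 and 1.72 CPM with SMARCB1, a log2 change of -2.24 (SE 0.11, adjusted p 6.12e-12). LHX2, a gene of eye and forebrain, rose from 11.7 ± 0.362 to 15.9 ± 1.12 CPM (SD, n = 3), for a log2 change of 0.44 (adjusted p 5.04e-05). SIX4 and SIX5, relatives of the Drosophila eye gene sine oculis, also differed in direction. SIX4 rose from 55.4 ± 3.39 to 71.6 ± 1.72 CPM (SD, n = 3), for a log2 change of 0.37 (adjusted p 4.31e-07). SIX5 fell from 12.7 ± 0.889 to 10.99 ± 0.982 CPM (SD, n = 3), by 0.20 on the log2 scale (adjusted p 0.0278), with overlapping libraries, and this call was lost without GFP DMSO replicate 2 or 3 or SMARCB1 DMSO replicate 2. Under spike-in scaling SIX5 was at -0.03 (adjusted p 0.833).

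**Figure D2:**
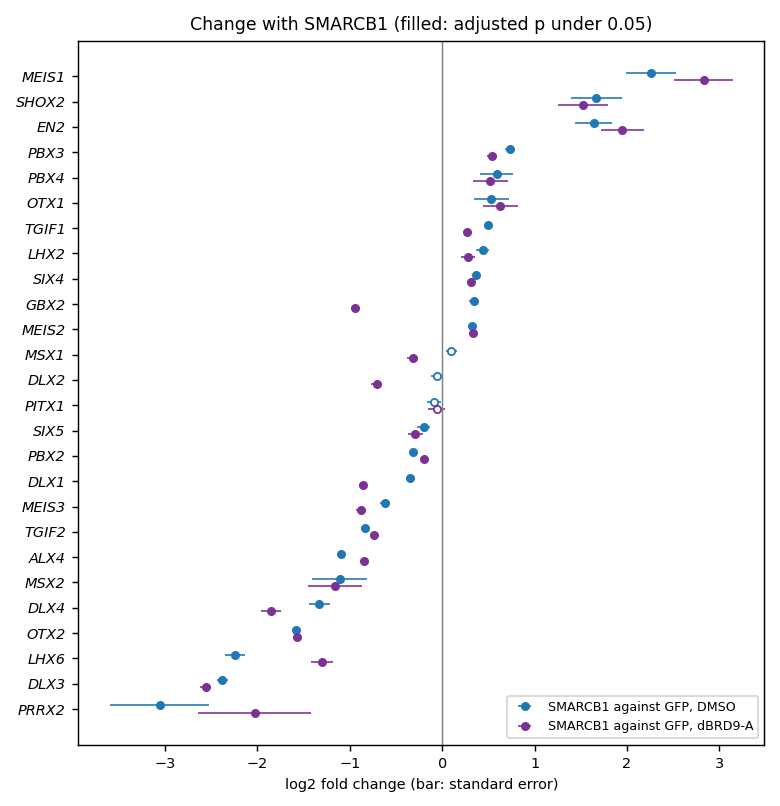
Log2 fold change of SMARCB1 against GFP for the 26 tested genes in DMSO (blue) and with dBRD9-A (purple), with bars for the standard error and filled points at an adjusted p under 0.05. Most genes lie on the same side of 0 in both treatments, and GBX2 lies at 0.34 in DMSO and at -0.94 with dBRD9-A.

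The effect of dBRD9-A in cells without SMARCB1 was compared with DMSO in GFP cells. GBX2 and all 4 expressed DLX genes rose, with MSX1, MEIS3, PBX3 and TGIF1, and LHX6, ALX4 and PBX2 fell. These 12 were 46.2% of the 26 members, where 15.9% of all genes tested changed. The 9 that rose compare with 7.43% of all genes that rose, and the 3 that fell with 8.47% that fell. GBX2 and LHX6 changed at least 2-fold, as did 0.908% of all genes. The median absolute log2 fold change was 0.245 over the members and 0.0949 over all genes, so most changes were small. Since the list was chosen with earlier results known, these shares do not test it. With libraries scaled to the spike-in RNAs, which moved the median of all genes by 0.36, 21 members changed, 20 higher and 1 lower. LHX6 fell under that scaling too (log2 fold change -0.71). ALX4 was then at 0.13 (adjusted p 0.0638, not called) and PBX2 at 0.22 (adjusted p 0.00714). The falls of these 2 genes were thus seen relative to the bulk of genes and not under spike-in scaling. How the spike-ins were added is not given, and what moved the median was not tested.

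GBX2 was at 16.7, 16.9 and 16.0 CPM in DMSO and at 41.1, 39.7 and 41.6 CPM with dBRD9-A in GFP cells. The groups were far apart, with a log2 change of 1.31 (SE 0.05, adjusted p 6.35e-12), which remained between 1.29 and 1.33 when any 1 library was left out. GBX2 overlaps a gene on the opposite strand, AC019068.1, in GENCODE 29. Its antagonist OTX2 was at 104.9, 100.3 and 105.9 CPM in DMSO and at 96.7, 102.9 and 103.4 CPM with dBRD9-A, with overlapping libraries and a log2 change of -0.04 (adjusted p 0.599). The level of GBX2 per length went from 7.13 ± 0.198 to 17.6 ± 0.411 CPM per kb, from rank 11 to rank 4 of the 26 genes (SD, n = 3).

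Each DLX gene rose without overlap of its libraries. DLX2 was at 15.2, 13.8 and 15 CPM in DMSO and at 23.4, 22.9 and 23.6 CPM with dBRD9-A, a log2 change of 0.66 (SE 0.06, adjusted p 4.98e-07). DLX1, its neighbour, was at 28.2, 28.2 and 27.4 CPM and at 37.4, 36.6 and 36.6 CPM, a log2 change of 0.40 (SE 0.04, adjusted p 3.48e-06). DLX4 was at 6.66, 6.01 and 5.81 CPM and at 8.14, 8.88 and 8.67 CPM, a log2 change of 0.47 (SE 0.10, adjusted p 0.00256). The smallest rise was that of DLX3, from 18.6, 17.0 and 18.2 CPM to 20.8, 20.5 and 21.1 CPM, a log2 change of 0.21 (SE 0.05, adjusted p 0.00779). The order of the 4 DLX rises differed from that of their falls with SMARCB1, where DLX3 changed the most and DLX2 did not pass the test. All 4 rises kept their direction and their call in each alternative in which they could be tested, except the 2-fold limit, which none of them reached.

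MSX1 rose from 108.9, 108.9 and 113.1 CPM to 137.3, 131.6 and 151.4 CPM, a log2 change of 0.34 (SE 0.06, adjusted p 0.000535). MEIS3 rose from 29.8, 27.1 and 29.1 CPM to 36.6, 37.4 and 36.5 CPM, a log2 change of 0.36 (SE 0.05, adjusted p 2.73e-05), opposite to its fall with SMARCB1. TGIF1 went from 60.1, 61.5 and 63.2 CPM to 69.6, 67.4 and 68.5 CPM, a log2 change of 0.15 (SE 0.03, adjusted p 0.00148). In these 3 genes no library with dBRD9-A was as low as a DMSO library. PBX3 rose from 24.2, 25.8 and 22.2 CPM to 27.2, 28.1 and 27.5 CPM (log2 fold change 0.20, adjusted p 0.0148), and PBX2 fell from 61.6, 62.8 and 63.7 CPM to 57.9, 55.6 and 57.1 CPM (log2 fold change -0.14, adjusted p 0.011). Both PBX calls were lost without GFP DMSO replicate 3 or GFP dBRD9-A replicate 2, with adjusted p values of up to 0.0848 for PBX3 and 0.0627 for PBX2.

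LHX6 fell from 7.99, 8.24 and 7.76 CPM to 3.67, 3.82 and 3.98 CPM with dBRD9-A in GFP cells, a log2 change of -1.06 (SE 0.10, adjusted p 7.73e-07). ALX4 fell from 156.7, 158.5 and 152.7 CPM to 135.1, 129.5 and 135.1 CPM, by 0.23 on the log2 scale (SE 0.03, adjusted p 0.000143). LHX6 and ALX4 also fell with SMARCB1, by the larger amounts given above; the comparisons share the GFP DMSO libraries. EN2, MEIS1 and PRRX2 had log2 fold changes of -0.43, -0.74 and -0.84 with standard errors of 0.26 to 0.41, and none passed the test at their low counts. Another 11 members also did not pass it.

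**Figure D3:**
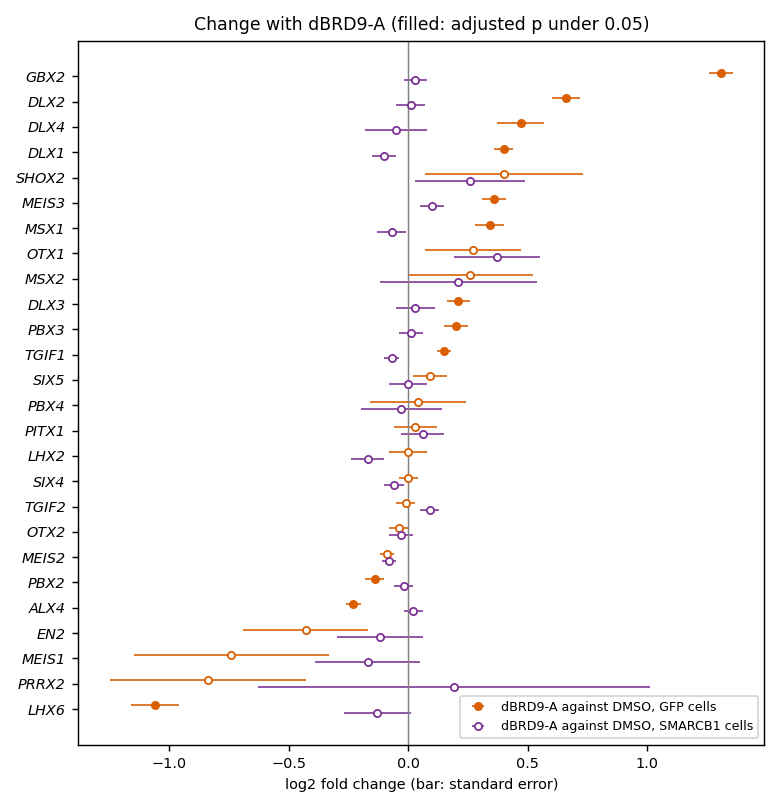
Log2 fold change of dBRD9-A against DMSO for the 26 tested genes in GFP cells (orange) and SMARCB1 cells (purple), with bars for the standard error and filled points at an adjusted p under 0.05. In GFP cells 12 genes are filled, from LHX6 at -1.06 to GBX2 at 1.31, and in SMARCB1 cells none is.

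The same treatment in SMARCB1 cells changed 0 of the 26 members, where 1.93% of all genes tested changed, 0.679% higher and 1.25% lower. In edgeR's test 4 members had an unadjusted p under 0.05 and the lowest adjusted p was 0.243, and DESeq2 also called 0. Without SMARCB1 DMSO replicate 1 the count was 0 too. Replicate 2 of SMARCB1 with dBRD9-A differed most from its group. The chi-square per degree of freedom was 10.96 between replicates 1 and 2, 25.98 between 2 and 3, and 7.69 between 1 and 3. Without this replicate 2 the member count was still 0, but more of all genes were called, so the background share depends on that library. SMARCB1 mRNA itself was lower with dBRD9-A in these cells, as given above, and its part in the comparison was not tested. Log2 fold changes lay between -0.17, for LHX2, and 0.37, for OTX1, and their median absolute value was 0.073 over the members and 0.0604 over all genes. The 12 genes that changed in GFP cells lay between -0.13 and 0.10 here. GBX2 was at 20.6, 20.4 and 21.5 CPM in DMSO and at 20.5, 22.9 and 20.2 CPM with dBRD9-A, with overlapping libraries. Spike-in scaling, which moved the median of all genes by -0.14, called 2 members, LHX2 (-0.31) and MEIS2 (-0.21), both lower. It called 873 genes in all, against 304 of 15750 with TMM factors.

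Whether the response to dBRD9-A differed between the cell states was tested as an interaction, the log2 response in SMARCB1 cells minus that in GFP cells. It was called for 8 of the 26 members (30.8%), where 3.80% of all genes tested were called. Of these, 6 were negative, where 1.65% of all genes were, and 2 were positive, where 2.15% were. The 8 were GBX2, DLX1, DLX2, MSX1, MEIS3, TGIF1, LHX6 and ALX4. Each of the 8 had also changed in GFP cells, and in each the change was smaller in size in SMARCB1 cells. The interaction is computed from these same responses and libraries, so this is not a separate result. The choice of the list with earlier results known limits the shares here too. DESeq2 also called 8 members. Leaving out SMARCB1 dBRD9-A replicate 2 gave 8 members too, but more of all genes were then called, so this background share also depends on that library. With spike-in scaling, which moved the median of all genes by -0.49, 18 were called, 0 higher and 18 lower. ALX4 was then at -0.25, so its positive sign was seen relative to the bulk of genes and not under this scaling. LHX6 was then at 0.43 (adjusted p 0.0508) and was not called.

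GBX2 had the largest called difference, -1.28 (SE 0.07, adjusted p 7.64e-09), the only 1 of the 8 past a 2-fold difference, as were 0.267% of all genes. DLX2 was at 14.4, 13.3 and 14.5 CPM in SMARCB1 cells with DMSO and at 13.7, 15.6 and 13.1 CPM with dBRD9-A, and its difference in response was -0.65 (SE 0.09, adjusted p 0.000214). DLX1 was at 23.4, 20.9 and 21.3 CPM and at 20.6, 19.8 and 20.8 CPM there, and its difference was -0.50 (SE 0.06, adjusted p 0.000113). These 2 genes thus rose by 1.58-fold and 1.32-fold in GFP cells and showed no called change in SMARCB1 cells. DLX4, with a difference of -0.52 (SE 0.16, adjusted p 0.0901), and DLX3, with -0.18 (SE 0.09, adjusted p 0.383), did not pass this test, so their responses were not shown to differ between the cell states. DLX3 was at 3.55, 3.38 and 3.65 CPM and DLX4 at 2.71, 2.07 and 2.40 CPM in SMARCB1 cells with dBRD9-A.

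MSX1 was at 121.6, 111.5 and 121.4 CPM in SMARCB1 cells with DMSO and at 106.5, 125.3 and 105.3 CPM with dBRD9-A, and its difference in response was -0.41 (SE 0.08, adjusted p 0.00714). TGIF1 was at 88.0, 87.4 and 86.4 CPM and at 83.6, 81.3 and 83.6 CPM, with a difference of -0.23 (SE 0.04, adjusted p 0.00288). For MEIS3, at 18.7, 19.0 and 18.5 CPM and at 18.7, 21.1 and 20.4 CPM, the difference was -0.26 (SE 0.07, adjusted p 0.0462). That call was close to the threshold and was lost when any of 10 of the 12 libraries was left out, with an adjusted p of up to 0.107. The exceptions were GFP DMSO replicate 1 and SMARCB1 dBRD9-A replicate 2. Without SMARCB1 DMSO replicate 1, 7 members were called.

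The positive differences belonged to LHX6 and ALX4, which fell in GFP cells. This sign follows from the subtraction, since their responses in SMARCB1 cells were smaller in size, -0.13 for LHX6 and 0.02 for ALX4. LHX6 was at 1.73, 1.61 and 1.72 CPM in SMARCB1 cells with DMSO and at 1.19, 1.59 and 1.84 CPM with dBRD9-A, and its difference in response was 0.94 (SE 0.17, adjusted p 0.00321), which spike-in scaling brought to 0.43. ALX4 was at 73.0, 74.2 and 71.6 CPM and at 69.5, 77.2 and 74.8 CPM, with a difference of 0.25 (SE 0.05, adjusted p 0.00685). Both genes were lower in SMARCB1 than in GFP cells with DMSO, as were DLX1 and MEIS3, whose differences in response were negative. PBX2 and PBX3 changed in GFP cells without a called interaction, with differences of 0.12 (adjusted p 0.243) and -0.19 (adjusted p 0.194). PBX2 was at 51.9, 48.0 and 48.5 CPM and PBX3 at 41.5, 38.3 and 41.02 CPM in SMARCB1 cells with dBRD9-A.

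**Figure D4:**
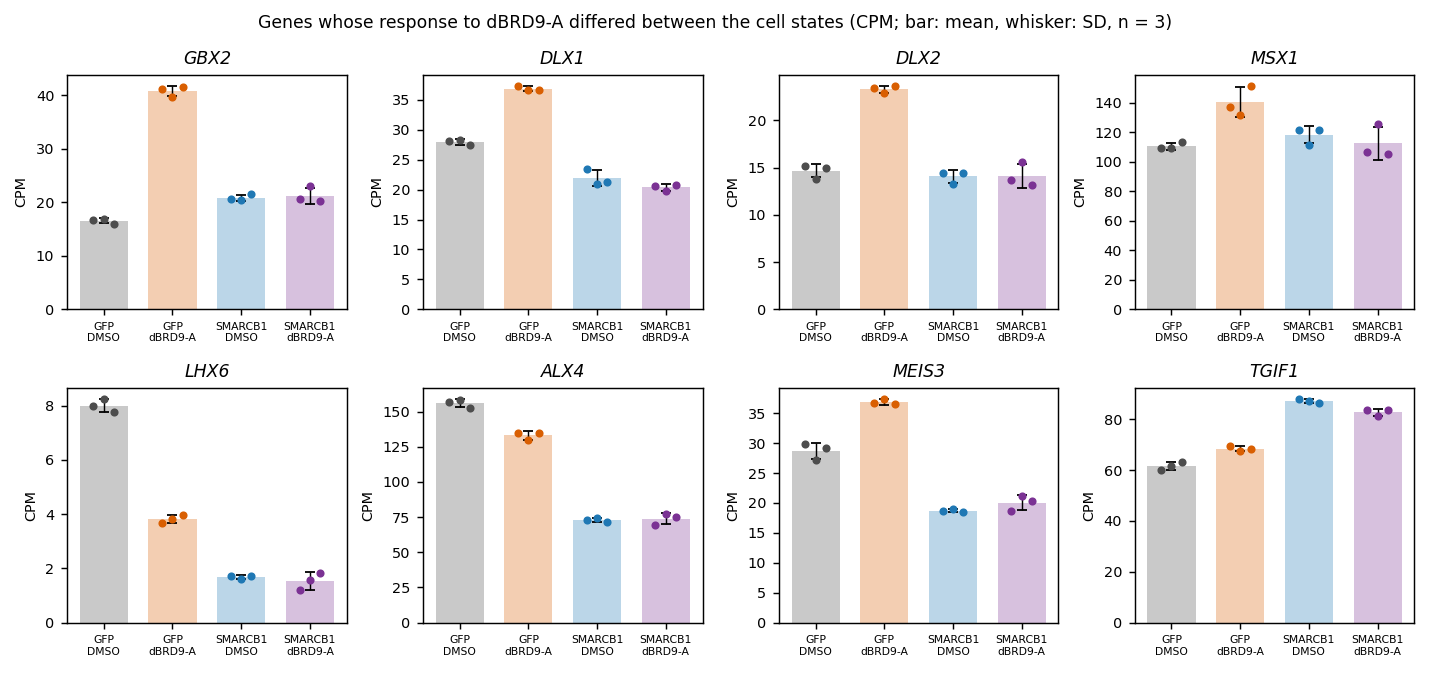
Level in CPM of the 8 genes with a called interaction in each group, with points for libraries, bars for means and whiskers for the SD (n = 3). GBX2 stands at 40.8 CPM in GFP cells with dBRD9-A and between 16.5 and 21.2 CPM in the other groups, while LHX6 falls from 7.998 to 3.82 CPM in GFP cells and is below 2 CPM in both SMARCB1 groups.

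SMARCB1 was also compared with GFP in the presence of dBRD9-A. Here 25 of the 26 members changed, where 63.3% of all genes tested did, 10 higher and 15 lower, where 33.0% and 30.4% of all genes were higher and lower. PITX1 did not pass the test (log2 fold change -0.06, adjusted p 0.572). At least 2-fold changes were seen in 9 members, where 14.6% of all genes had them. Spike-in scaling, which moved the median of all genes by -0.32, gave 20 members, 4 higher and 16 lower. Of the 23 genes that changed with SMARCB1 in both treatments, GBX2 alone had the opposite sign, at 0.34 in DMSO and -0.94 (SE 0.05, adjusted p 1.15e-11) with dBRD9-A. MSX1 and DLX2, which had not passed the test in DMSO, were lower in SMARCB1 cells with dBRD9-A, by 0.32 (adjusted p 0.000153) and 0.71 (adjusted p 1.34e-08) as falls on the log2 scale. The GFP libraries with dBRD9-A enter both this comparison and that of dBRD9-A in GFP cells.

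The 5 tested genes with the lowest counts among those changed at least 2-fold were also compared with SMARCB1 in this second pair of groups, and each kept its direction. MEIS1 had 4, 5 and 3 counts in GFP cells with dBRD9-A and 27, 47 and 30 in SMARCB1 cells with dBRD9-A, a log2 change of 2.83 (SE 0.32, adjusted p 5.35e-07). EN2 had 13, 15 and 12 counts and 55, 77 and 52 counts, a log2 change of 1.95 (SE 0.23, adjusted p 8.21e-07). SHOX2 had 16, 23 and 14 counts and 40, 92 and 52 counts, a log2 change of 1.52 (SE 0.27, adjusted p 9.96e-05). PRRX2, with 11, 4 and 10 counts and 1, 5 and 1 counts, was lower by a log2 change of -2.03 (SE 0.61, adjusted p 0.00758), and MSX2, with 39, 40 and 38 counts and 17, 27 and 18 counts, was lower by -1.16 (SE 0.29, adjusted p 0.00219). These libraries also entered the comparison in DMSO, through the count filter, the scaling and the shared estimate of the spread. MEIS1 had 3 to 12 counts in GFP libraries and PRRX2 had 1 to 5 in SMARCB1 libraries. Each of these 2 genes passed the filter through the groups where it was high. The kept directions are thus a description and not separate support.

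Homeodomain proteins work with cofactors, so a list of 28 genes was described beside them. It held TALE partners (PKNOX1, PKNOX2 and PBXIP1), LIM cofactors (LDB, SSBP and LMO genes) and cofactors of SIX4 and SIX5 (EYA and DACH genes). It also held the Groucho family of cofactors (TLE genes) and the corepressors CTBP1, CTBP2, HDAC1, HDAC2 and SIN3A. Of 27 that were matched, 18 were tested. In DMSO, 12 of the 18 changed with SMARCB1, 8 upward and 4 downward, a share of 66.7% against 65.0% of all genes and so near the background. Without SMARCB1 DMSO replicate 1 there were 11, 8 higher and 3 lower. TLE1 went from 3.23, 3.18 and 3.30 CPM to 129.9, 121.3 and 130.5 CPM, a 39.2-fold rise (log2 fold change 5.29, SE 0.07, adjusted p 2.45e-20). TLE3 went the other way, from 10.6, 11.1 and 10.6 CPM to 0.916, 1.08 and 0.808 CPM, an 11.6-fold fall (log2 fold change -3.54, SE 0.11, adjusted p 7.95e-15). PKNOX1, a TALE partner of PBX proteins, rose by a log2 change of 0.65 (adjusted p 4.5e-10), and LDB1, which bridges LIM homeodomain proteins, fell by 0.34.

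Under dBRD9-A, 2 of the 18 cofactors changed in GFP cells, 11.1% against 15.9% of all genes: TLE5 rose by a log2 change of 0.24 and TLE1 fell by 0.42 (adjusted p 0.0241). The fall of TLE1 was not called without GFP DMSO replicate 1 or 3 or GFP dBRD9-A replicate 1 or 3, and 3 of these 4 settings left 1 cofactor called. Spike-in scaling called 16 cofactors, all higher. In SMARCB1 cells 0 changed in edgeR's test, where 1.93% of all genes did, with 4 at an unadjusted p under 0.05 and 0 in DESeq2. SMARCB1 in the presence of dBRD9-A changed 14 (77.8%, where 63.3% of all genes changed), 8 higher and 6 lower, where 33.0% and 30.4% of all genes were higher and lower. An interaction was called for TLE4 alone (-0.21, adjusted p 0.0347), 5.56% of the 18 where 3.80% of all genes were called, and the number of cofactors with a called interaction was 0 to 3 when single libraries were left out, including 0 without SMARCB1 DMSO replicate 1.

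**Figure D5:**
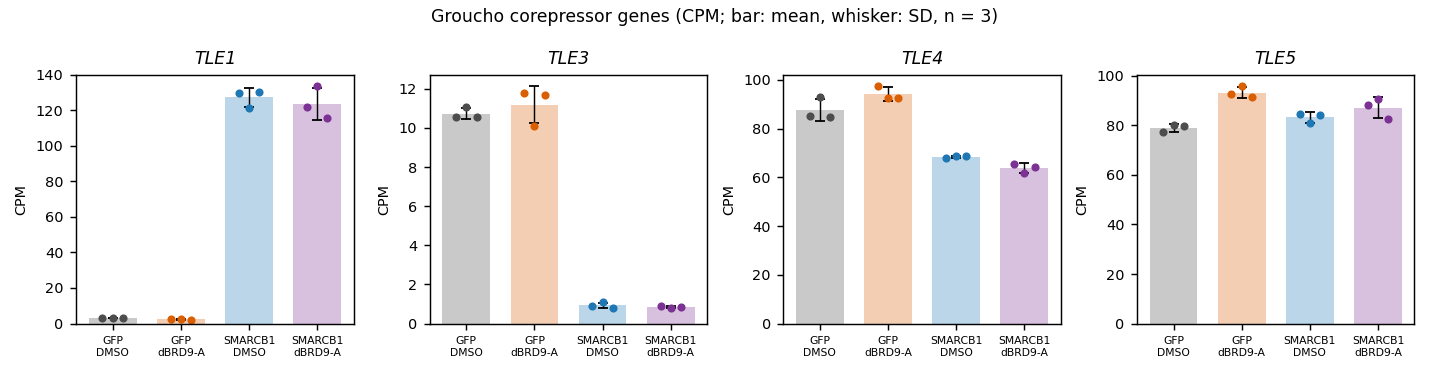
Level in CPM of 4 genes of the Groucho (TLE) family in each group, with points for libraries, bars for means and whiskers for the SD (n = 3). TLE2 is not shown. TLE1 is at 3.24 and 2.42 CPM in the GFP groups and at 127 and 124 CPM in the SMARCB1 groups, TLE3 shows the opposite order, and TLE4 and TLE5 stay between 61 and 98 CPM in all libraries.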

How the data were processed

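RNA sequencing of 12 G401 libraries was analysed from gene tables of expected counts that the authors deposited. Per the labels' protocols, RNA came from Qiagen RNeasy Plus columns, and the TruSeq Stranded mRNA kit turned it into libraries. The submitters' processing notes name STAR, RSEM 1.3.1 and DESeq2 with the builds GRCh37 and hg19, without roles. The annotation and the use of strand are not given in the sources used here. RSEM divides reads between genes, so near-identical or overlapping genes can share them.

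The deposited expected counts were rounded to whole numbers, and 40 spike-in identifiers, 0.9634% to 1.302% of counts, entered neither library sizes nor tests. How the spike-ins were added is not given in the labels. Libraries held 34.97 to 58.54 megacounts. Replicates differed by more than sampling noise (chi-square per degree of freedom 3.03 to 25.98), so each library counted as 1 sample. Symbols came from a table of Ensembl identifiers (51996 of 57820 matched). Overlaps and exon lengths came from GENCODE 29, which is on another build, so no coordinates were taken from it, and promoters came from RefSeq, GRCh38.p14.

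Genes passing edgeR's filterByExpr (minimum count 10; 15750 genes) were fitted with edgeR 4.0.16 in R 4.3.3 by quasi-likelihood, with 1 coefficient per group over all 12 libraries and trimmed mean of M values scaling (factors 0.9765 to 1.016). There were 5 contrasts, with Benjamini-Hochberg adjustment over all genes and calls at an adjusted p under 0.05. CPM are on the scaled library sizes, ± is the SD, and standard errors derive from the quasi-F statistic. The fit was run on simulated counts for the contrast of SMARCB1 in DMSO only. That simulation had a single fixed spread and few changed genes, unlike these data, so it checks the code only. Levels in CPM per kb used GENCODE 29 exon lengths.

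Alternatives were DESeq2 1.42.0, DESeq2-style size factors, spike-in scaling, no filter, a minimum count of 50, a 2-fold limit, only the groups compared, a replicate block, and leaving out each library. The members and lists were chosen with earlier results of these data known. Values of every library are given for tested genes with an at least 2-fold called change in any contrast and for those called for dBRD9-A or the interaction; values of low genes, TLE genes, promoters and motifs, and the count of genes found in a single library, were chosen after values were seen. The replicate numbers in the labels did not pair the samples (0 of 18 pairs of same-numbered libraries had correlated deviations over 0.1).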

Additional observations from a re-analysis of the deposited data

Results flagged for a closer look

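The response to dBRD9-A differed between the cell states, by edgeR's interaction test at an adjusted p under 0.05, for 8 of the 26 tested homeobox genes. The log2 response in SMARCB1 cells minus that in GFP cells was -1.28 for GBX2, -0.65 for DLX2, -0.50 for DLX1, -0.41 for MSX1, -0.26 for MEIS3 and -0.23 for TGIF1. It was 0.94 for LHX6 and 0.25 for ALX4. Under spike-in scaling LHX6 was at 0.43 (adjusted p 0.0508) and ALX4 at -0.25. The call of MEIS3 was lost without any 1 of 10 of the 12 libraries.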

How the results depend on the processing

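Of the 68 calls of single homeobox genes over the 5 contrasts, 52 were kept in every setting that gave them a value, leaving aside the 2-fold limit. A minimum count of 50 gave values for 60 of the 68 and fits of only the groups compared for 59. Kept calls numbered 61 when any 1 library was left out, and 6 changed sign, all under spike-in scaling. These were, in GFP cells, ALX4 (0.13) and PBX2 (0.22), with SMARCB1 in the presence of dBRD9-A, TGIF1 (-0.05), LHX2 (-0.06) and SIX4 (-0.02), and the interaction of ALX4 (-0.25). The cause was not tested. Spike-in scaling also lost the calls of PBX2 (-0.15) and SIX5 (-0.03) for SMARCB1 in DMSO, of MEIS2 (0.01), OTX1 (0.31) and PBX4 (0.19) for SMARCB1 with dBRD9-A, and of LHX6 (0.43) for the interaction. Spike-in scaling gave 21 homeobox genes for dBRD9-A in GFP cells, 2 in SMARCB1 cells and 18 for the interaction, and 16, 4 and 16 cofactors. It made 25 new calls of single homeobox genes over the 5 contrasts. The 2-fold limit left 10 homeobox genes for SMARCB1 in DMSO, 2 for dBRD9-A in GFP cells, 9 for SMARCB1 with dBRD9-A and 1 for the interaction, and 2, 0, 3 and 0 cofactors. With no filter, 1 cofactor was called for dBRD9-A in SMARCB1 cells and 2 for the interaction, as were 2 with DESeq2. No filter also called IRX3 higher with SMARCB1 in DMSO (log2 fold change 4.72, adjusted p 0.0109) and ALX1 lower with SMARCB1 in the presence of dBRD9-A (-5.16, adjusted p 0.00755); with groups at 0 counts these folds depend on the prior count. Leaving out single libraries gave 21 to 23, 10 to 13, 0, 24 to 25 and 7 to 8 homeobox genes for SMARCB1 in DMSO, dBRD9-A in GFP cells, dBRD9-A in SMARCB1 cells, SMARCB1 with dBRD9-A and the interaction, and 11 to 14, 1 to 3, 0 to 1, 11 to 14 and 0 to 3 cofactors. The replicate block gave 23, 12, 0, 25 and 7 homeobox genes and 0 cofactors with a called interaction. In it MEIS3 lost its interaction (adjusted p 0.0805). Replicate numbers did not pair the samples: deviations of same-numbered libraries correlated at -0.056 to 0.061, and 3 of 12 libraries correlated best with their own number. Counts under 10 limit what can be said of the IRX genes, ALX1 and GBX1.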
